A study of Mus musculus with 6 samples.

Results

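Kidneys of Fat4-/- and Fat4+/+ mouse embryos were compared for 39 genes of glycolysis and the hypoxia response, taken by gene name from a list drawn up with earlier results of these data known. All 39 have a value in every library, out of 21553 genes that do. Of these, 36 reached the mean of 1 cRPKM over the 6 libraries that was required for testing, as did 12315 genes in all. The 3 below it were Aldoc, Pdk4 and Adm. The unit, cRPKM, is the authors' corrected form of reads per kilobase of gene scaled to each library's mapped reads, so levels are comparable between genes as far as that correction, which is not described, allows.

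Glycolysis splits glucose into pyruvate through a chain of cytosolic enzymes, and lactate dehydrogenase then turns pyruvate into lactate. When oxygen is scarce, prolyl hydroxylases stop marking the HIF alpha subunits for destruction, and HIF raises transcription of glucose transporters, of most glycolytic enzymes and of enzymes that keep pyruvate out of the mitochondria. In the developing kidney, nephron progenitors of the cap mesenchyme are known to rely on glycolysis while they renew themselves, and to use it less as they differentiate.

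The first group was 3 embryos homozygous for a Fat4 mutation (Fat4-/-), and the second 3 wildtype embryos (Fat4+/+). All 6 came from 1 pregnant female, were taken at E13.5, and carried a background named C57BL6/6 after 6 backcrosses (N6). Both kidneys of each embryo (2 per library) gave total RNA after the bulk of the ureter was cut off, so that ureteric bud, condensing mesenchyme and stroma were mixed. Fat4 encodes a giant atypical cadherin, and what the mutation takes out of the gene is not stated in the sources used. In such bulk tissue, fewer cells of a type and less RNA per cell cannot be told apart.

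Fat4 was at 7.82, 7.20 and 7.49 cRPKM in the mutant libraries, against 16.7, 15.7 and 16.8 cRPKM in the wildtype libraries, without overlap. These values separate the labelled groups but do not by themselves establish the genotype of a library. The values of a library summed to 477953 to 503223 cRPKM in mutant and 473695 to 496707 cRPKM in wildtype kidneys. Read totals are not known, but the steps between low values put relative depth at 1.00 to 1.04 for mutant embryos and 0.906 to 1.00 for wildtype embryos, where only factors close to 1 were tried. The chosen factor explained 17 to 23 of the 28 to 34 genes compared in each mutant library, and 17 of 30 and 17 of 35 in wildtype embryos 2 and 3, so it is a rough estimate. Ddx3y and the other 3 Y-linked genes used as a check were expressed in mutant embryo 1 and in all wildtype embryos and were at 0.05 cRPKM or less in mutant embryos 2 and 3. Kidney markers were present: none of the 10 nephron progenitor, 8 stromal and 9 ureteric markers with values was at 0 or under 1 cRPKM in all libraries. The summed level of the nephron progenitor markers was 403 to 461 cRPKM in mutant and 341 to 381 cRPKM in wildtype libraries, without overlap.

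Of the 36 tested members, 1 rose (Eno3) and 1 fell (Eno2) in mutant kidneys, and 34 did not pass (limma on log2(cRPKM + 1), adjusted p under 0.05 over all 12315 genes). Over all tested genes 0.552% were called higher and 0.877% lower. A wider set of members lay on the higher side without passing: 14 of 36 had a higher mutant level at an unadjusted p under 0.05, where 5.08% of all tested genes did, and 1 (Eno2) had a lower one, where 7.97% did. In 14 members every mutant library was above every wildtype library, against 7.23% of all tested genes, and in 2 (Eno2 and Ldhb) every mutant library was below, against 11.0%. The median log2 fold change was 0.08 over the tested members and -0.01 over all tested genes.

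**Figure D1:**
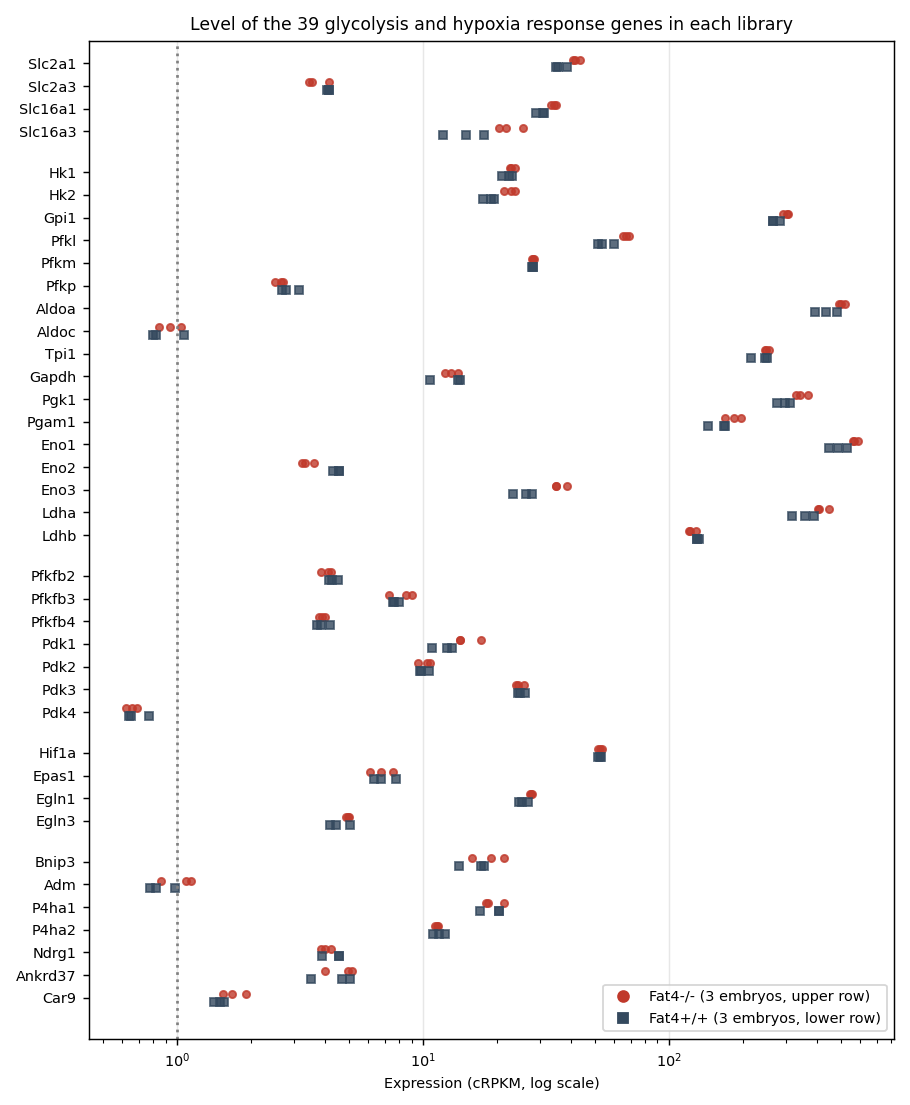
Level of each of the 39 genes in each library, in cRPKM on a log axis, with the 3 Fat4-/- embryos as circles in the upper row and the 3 Fat4+/+ embryos as squares in the lower row of each gene. Genes run by role from transporters to hypoxia response genes, and the dotted line marks 1 cRPKM. Eno1, Aldoa and Ldha stand highest, and Gapdh lies near 13.0 cRPKM.

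The members that the comparison turns on were read beside their promoters, because genes of this pathway are known to share a HIF binding core. The core was searched as ACGTG and GCGTG on both strands in RefSeq windows of 300 bases, 250 before and 50 after each start site (GRCm38.p6). At least 1 window was found for 36 of the 39 members, 51 windows in all. ACGTG stood in 28 of the 51 windows (54.9%), against 19.6% of all 32851 windows. Either core stood in 43 of the 51 (84.3%), against 43.8% of all windows. Member windows were also richer in GC, with a median of 61.0% against 52.7%, and held a median of 18 CpG dinucleotides against 7; the part of base composition in the motif share was not tested. A match is a stretch of letters and does not show that a factor binds there.

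The 250 bases before the start site are shown for the 2 enolase genes that passed the test, for Slc16a3, which had the largest fold change of the members, and for Ldha, whose subunit shares are given further on. Ldha has 2 windows, and the one with more matches is printed; the other, at chr7:46846832-46847081, holds 1, read as CACGC. They are printed 5′ to 3′ on the strand of the gene, with matches to either core in capitals. They lie at chr11:70656926-70657175 (plus strand) for Eno3, chr6:124769674-124769923 (minus strand) for Eno2, chr11:120948817-120949066 (plus strand) for Slc16a3 and chr7:46845554-46845803 (plus strand) for Ldha.
Eno3: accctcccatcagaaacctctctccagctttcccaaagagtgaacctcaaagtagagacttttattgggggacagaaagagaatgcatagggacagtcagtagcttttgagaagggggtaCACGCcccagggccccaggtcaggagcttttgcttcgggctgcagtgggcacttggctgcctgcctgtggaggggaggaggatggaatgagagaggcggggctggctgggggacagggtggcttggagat
Eno2: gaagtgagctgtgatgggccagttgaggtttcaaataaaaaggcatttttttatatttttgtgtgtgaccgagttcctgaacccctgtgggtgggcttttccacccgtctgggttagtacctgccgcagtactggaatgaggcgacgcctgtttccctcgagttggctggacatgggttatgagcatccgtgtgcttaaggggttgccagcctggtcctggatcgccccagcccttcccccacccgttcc
Slc16a3: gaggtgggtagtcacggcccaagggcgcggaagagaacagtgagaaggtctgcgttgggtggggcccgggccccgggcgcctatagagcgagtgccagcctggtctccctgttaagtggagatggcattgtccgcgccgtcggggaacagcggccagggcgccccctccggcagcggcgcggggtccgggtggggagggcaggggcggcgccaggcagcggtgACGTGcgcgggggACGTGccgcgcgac
Ldha: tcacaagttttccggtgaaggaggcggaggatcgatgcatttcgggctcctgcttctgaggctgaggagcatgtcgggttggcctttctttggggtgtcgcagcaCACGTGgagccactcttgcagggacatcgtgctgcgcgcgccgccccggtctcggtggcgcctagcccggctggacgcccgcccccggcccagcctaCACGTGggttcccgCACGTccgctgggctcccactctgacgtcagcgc
The Slc16a3 stretch holds ACGTG at 2 places, ending 10 and 23 bases before the start. The Ldha stretch holds the palindrome CACGTG at 2 places and a single CACGT nearer the start. The Eno3 stretch holds 1 match to GCGTG, read as CACGC, 126 to 130 bases before the start, and that of Eno2 holds none.

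Of the 4 transporters, which move glucose in and lactate out, none passed (limma, adjusted p under 0.05). Of these, 3 were higher at an unadjusted p under 0.05, where 5.08% of all tested genes were. The same 3 had every mutant library above every wildtype one, against 7.23% of all tested genes. Slc16a3 (ENSMUSG00000025161, chromosome 11, 120948480 to 120960868, GRCm38) encodes the monocarboxylate transporter MCT4, known for lactate export from glycolytic cells. It was at 25.5, 20.4 and 21.9 cRPKM in mutant libraries, against 15.0, 17.8 and 12.1 cRPKM in wildtype libraries. Its mean was 22.6 ± 2.63 and 15.0 ± 2.83 cRPKM in mutant and wildtype kidneys (SD, n = 3 each), a ratio of 1.51. The log2 fold change was 0.57 (SE 0.126, 95% interval 0.28 to 0.86), and limma's adjusted p was 0.0767. Without wildtype embryo 2, the highest wildtype library, the adjusted p was 0.0377 with limma. Without mutant embryo 1 limma's adjusted p was 0.207. With Y-linked expression as a covariate the log2 fold change was 0.74 and limma's adjusted p 0.476. That fit called 1 gene higher and 1 lower over all tested genes.

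Slc2a1 encodes GLUT1, the basal glucose transporter of embryonic tissue. It was at 43.7, 40.7 and 41.4 cRPKM in mutant libraries, against 34.7, 38.7 and 35.4 cRPKM in wildtype libraries (log2 fold change 0.21, SE 0.0518, limma adjusted p = 0.111). Slc16a1, for the transporter MCT1, was at 34.0, 34.7 and 33.1 cRPKM in mutant libraries, against 31.1, 30.9 and 28.9 cRPKM in wildtype libraries (0.16, SE 0.0429, limma adjusted p = 0.139). The ratio of means was 1.16 for Slc2a1 and 1.12 for Slc16a1, and in neither did the groups overlap. Slc2a3, for the high-affinity glucose transporter GLUT3, was low and did not pass, at 4.15, 3.44 and 3.56 cRPKM in mutant libraries, against 4.17, 4.17 and 4.09 cRPKM in wildtype libraries. Mutant embryo 1 lay within the wildtype range for Slc2a3 and mutant embryos 2 and 3 below it. Slc2a3 made up 8.13 ± 0.481% of the summed Slc2a1 and Slc2a3 level in mutant and 10.3 ± 0.518% in wildtype libraries (SD, n = 3 each).

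Hexokinases trap glucose in the cell as its phosphate. Hk2, the inducible form, was at 22.8, 21.4 and 23.6 cRPKM in mutant libraries, against 17.5, 19.5 and 18.9 cRPKM in wildtype libraries. The groups did not overlap, the ratio of means was 1.21, and the log2 fold change of 0.27 (SE 0.0538) had a limma adjusted p of 0.0599. With library weights limma's adjusted p for Hk2 was 0.0481. It was 0.192 without mutant embryo 3 and 0.566 with Y-linked expression as a covariate, where the log2 fold change was 0.28. Hk1, the housekeeping form, averaged 23.1 ± 0.569 and 22.1 ± 1.05 cRPKM in mutant and wildtype kidneys (SD, n = 3 each), with overlapping values. Thus Hk2 made up 50.1, 48.6 and 49.9% of the summed hexokinase level in mutant libraries, against 45.6, 46.6 and 45.1% in wildtype libraries.

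Gpi1, the isomerase of the next step, was at 305, 291 and 303 cRPKM in mutant libraries, against 265, 283 and 265 cRPKM in wildtype libraries (log2 fold change 0.14, SE 0.0479, limma adjusted p = 0.240). Phosphofructokinase commits the sugar to glycolysis and is built from 3 kinds of subunit, of which the liver type was the most expressed here. Pfkl, for the liver type, was at 69.2, 64.9 and 67.1 cRPKM in mutant libraries, against 53.4, 60.0 and 51.7 cRPKM in wildtype libraries. It had a ratio of 1.22 and a log2 fold change of 0.28 (SE 0.0588, limma adjusted p = 0.0660), and passed without wildtype embryo 2 (0.0318). Its limma adjusted p was 0.192 without mutant embryo 3 and 0.519 with Y-linked expression as a covariate, where the log2 fold change was 0.32. Pfkm, for the muscle type, averaged 27.96 ± 0.270 and 27.88 ± 0.185 cRPKM in mutant and wildtype kidneys (SD, n = 3 each), and Pfkp, for the platelet type, averaged 2.61 and 2.86 cRPKM with overlapping values. Pfkl made up 68.7 ± 0.802% of the summed level of the 3 in mutant and 64.1 ± 2.07% in wildtype libraries (SD, n = 3 each), again without overlap.

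The members of the highest levels, Eno1, Aldoa, Ldha and Pgk1, act from aldolase onwards. Tpi1 and Pgam1, also of these steps, were below Gpi1. Aldoa, the main aldolase, averaged 504 ± 15.8 and 437 ± 44.0 cRPKM in mutant and wildtype kidneys (SD, n = 3 each), with a log2 fold change of 0.21 (limma adjusted p = 0.277). Without wildtype embryo 3 the log2 fold change of Aldoa was 0.14 and its unadjusted p with limma 0.0727. Every mutant library was above every wildtype one for Aldoa, the nearest pair being mutant embryo 2 at 490.5 cRPKM and wildtype embryo 2 at 482 cRPKM. Tpi1, the triose isomerase, averaged 249.6 ± 5.10 and 238 ± 19.2 cRPKM, and the groups overlapped. Pgk1 makes the first ATP of the chain and lies on chromosome X (106187100 to 106203699, GRCm38). Pgk1 was at 369, 341 and 330.1 cRPKM in mutant libraries, against 298, 310.4 and 277 cRPKM in wildtype libraries (log2 fold change 0.23, SE 0.0624, limma adjusted p = 0.136). Among the mutant embryos its highest value was in embryo 1, the one with Y-linked expression. The other X-linked member, Pdk3, is given with the switch enzymes. Pgam1, the mutase, averaged 183 ± 13.0 and 160.4 ± 14.2 cRPKM (0.19, limma adjusted p = 0.330), and its log2 fold change was 0.12 without wildtype embryo 3 (unadjusted p = 0.111 with limma).

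Gapdh, often used as a reference gene, had 13.0 ± 0.787 and 12.9 ± 1.92 cRPKM in mutant and wildtype kidneys (SD, n = 3 each), far under its neighbours in the chain, Tpi1 and Pgk1. How reads shared with near-identical copies were handled is not stated in the sources used, so the level of Gapdh is uncertain. The exons of Gapdh also overlap Iffo1 on the opposite strand, and strand use is not stated. Overlapping opposite-strand genes were annotated likewise for Slc2a1, Hk1, Gpi1, Aldoa and Tpi1, and for Pfkm, Pfkp, Pfkfb2, Hif1a, Bnip3, Ndrg1, Ankrd37 and Car9. The exons of Pfkm, Pfkfb2 and Hif1a also overlap a gene on the same strand.

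The enolases, which make phosphoenolpyruvate, held both members that passed, in opposite directions. Eno3 (ENSMUSG00000060600, chromosome 11, 70657202 to 70662513, GRCm38), for the beta form known from muscle, was at 34.8, 38.7 and 34.8 cRPKM in mutant libraries, against 26.2, 27.9 and 23.4 cRPKM in wildtype libraries. It rose by a ratio of 1.40, with a log2 fold change of 0.47 (SE 0.0698, 95% interval 0.31 to 0.63) and a limma adjusted p of 0.0229. Eno2 (ENSMUSG00000004267, chromosome 6, 124760053 to 124769673, GRCm38), for the gamma form known from neurons, was at 3.61, 3.31 and 3.24 cRPKM in mutant libraries, against 4.55, 4.32 and 4.56 cRPKM in wildtype libraries. It fell to 0.757 of the wildtype mean, with a log2 fold change of -0.32 (SE 0.0537, 95% interval -0.44 to -0.20) and a limma adjusted p of 0.0316. The groups did not overlap for either gene.

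Both calls depended on single libraries and on the settings. Both ended with the Y-linked score as covariate (limma adjusted p = 0.489 for Eno3 and 0.559 for Eno2) and without a filter on low values (limma adjusted p = 0.0801 and 0.0922). Leaving out any single mutant embryo ended the call of Eno3 (limma adjusted p 0.0724 to 0.0782), and leaving out any single wildtype embryo did not. Leaving out any single library, of either genotype, ended the call of Eno2 (limma adjusted p 0.0585 to 0.123). Both kept their direction, at 0.42 to 0.49 and -0.36 to -0.30 on the log2 scale without mutant embryos, and between those limits for Eno2 without wildtype embryos.

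Muscle and nerve markers were read beside these genes. Of 8 muscle markers, 3 were tested and 1 was called higher, Des, for the intermediate filament desmin, which smooth muscle and podocytes also make; Des was at 50.7, 56.7 and 55.0 cRPKM in mutant libraries, against 38.0, 40.8 and 35.9 cRPKM in wildtype libraries (limma adjusted p = 0.0119). The summed level of the 8 was 58.0 to 65.3 cRPKM in mutant and 42.2 to 49.9 cRPKM in wildtype libraries, and most of it was Des. Tnnt1 was at 3.75 to 5.29 cRPKM in mutant kidneys and 3.82 to 5.33 cRPKM in wildtype kidneys, and Tnnt3 at 2.19 to 2.23 and 2.00 to 2.60 cRPKM; both genes, for troponin T of skeletal muscle, overlapped. Acta1, Myh3 and Myog were at 0.36 cRPKM or less in mutant libraries, and wildtype embryo 1 had the highest values, at 1.39, 1.38 and 0.95 cRPKM. Ckm was at 0.02 cRPKM or less and Myod1 at 0.28 cRPKM or less in every library. Of 8 nerve markers, 4 were tested and none passed (limma; none at an unadjusted p under 0.05), and their summed level was 15.9 to 19.5 cRPKM in mutant kidneys and 14.6 to 22.1 cRPKM in wildtype kidneys. Most of that sum was Stmn2 and Elavl4, which overlapped between groups. Tubb3, for neuronal tubulin, was at 0.880 to 1.02 cRPKM in mutant kidneys and 1.04 to 4.57 cRPKM in wildtype kidneys. Prph was at 0.15 to 0.23 and 0.24 to 1.36 cRPKM, and Sox10 at 0.01 to 0.03 and 0.05 to 0.24 cRPKM, so that these 3 were lower in every mutant library. The part of the muscle and nerve markers in the results for Eno3 and Eno2 was not tested.

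Eno1, the general alpha form, had the highest level of all members. It was at 587, 560.5 and 566 cRPKM in mutant libraries, against 489, 528 and 450.4 cRPKM in wildtype libraries (log2 fold change 0.23, SE 0.0662, limma adjusted p = 0.177). Of the summed enolase level, Eno3 made up 5.91 ± 0.453% in mutant and 4.97 ± 0.0768% in wildtype libraries, and Eno2 0.554 ± 0.0209% and 0.867 ± 0.0917% (SD, n = 3 each). Eno1 held 93.0 to 93.9% of it in mutant kidneys and 94.1 to 94.2% in wildtype kidneys, so the shift within the family was small beside its dominance.

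Lactate dehydrogenase is a tetramer of A subunits, which favour lactate formation, and B subunits, which favour its use. Ldha was at 450.2, 404 and 407 cRPKM in mutant libraries, against 359, 389 and 318 cRPKM in wildtype libraries (log2 fold change 0.25, SE 0.0801, limma adjusted p = 0.235). Ldhb was at 120.4, 129 and 122 cRPKM in mutant libraries, against 133, 130.5 and 131 cRPKM in wildtype libraries (-0.09, SE 0.0425, limma adjusted p = 0.447). The mutant libraries were all above the wildtype ones for Ldha and all below for Ldhb. Ldhb thus made up 21.1, 24.2 and 23.0% of the summed level in mutant libraries, against 27.0, 25.1 and 29.1% in wildtype libraries.

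**Figure D2:**
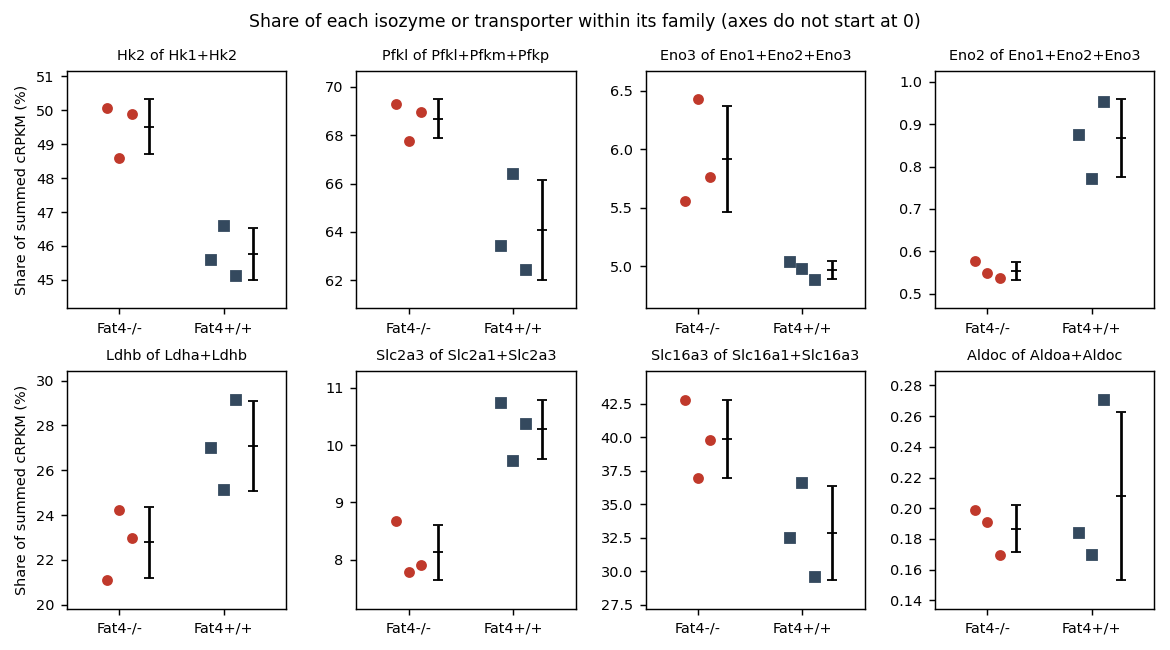
Share of 1 gene in the summed cRPKM of its family, in percent, for each Fat4-/- embryo (circles) and each Fat4+/+ embryo (squares), with the mean and SD beside them (n = 3 each); the vertical axes do not start at 0. The groups do not overlap in any panel other than Aldoc.

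In all, 11 such shares were computed, 8 planned and 3 added after the values were seen (Eno2, Eno3 and Slc16a3). In 10 of them the mutant and wildtype libraries did not overlap. These were every planned share except that of Aldoc, and the 3 added ones, whose values were already seen. As single genes 7.23% of all tested genes lay wholly above and 11.0% wholly below. Shares within other gene families were not computed, so there is no like background for the 10. The 3 phosphofructokinase shares sum to the whole, as do the 3 enolase shares, so the shares are not independent. With 3 embryos against 3 an exact 2-sided permutation test cannot go below p = 0.1, which each of those 10 had (adjusted over the shares, p = 0.110). Slc16a3 made up 42.8, 37.0 and 39.8% of the summed Slc16a1 and Slc16a3 level in mutant libraries, against 32.5, 36.6 and 29.6% in wildtype libraries, where wildtype embryo 2 lay close to mutant embryo 2. Aldoc, the brain aldolase, was under 0.271% of the aldolase level in every library and overlapped between groups (exact permutation p = 0.800). The shares are made from the same values as the fold changes of the members and are no separate evidence.

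Of the 6 tested switch enzymes, which set how much sugar enters glycolysis and how much pyruvate enters the mitochondria, none passed (limma). Of these, 1 was higher at an unadjusted p under 0.05, where 5.08% of all tested genes were. Pdk1, a kinase that turns pyruvate dehydrogenase off and a known HIF target, was at 17.2, 14.1 and 14.2 cRPKM in mutant libraries, against 12.5, 13.1 and 10.9 cRPKM in wildtype libraries. Its groups did not overlap, and mutant embryo 1 stood apart at the top (log2 fold change 0.29, SE 0.0876, limma adjusted p = 0.186). Pdk3 had the highest level of its group and lies on chromosome X, and was at 24.4, 25.9 and 23.9 cRPKM in mutant libraries, against 26.0, 24.3 and 24.9 cRPKM in wildtype libraries. Pdk2 averaged 10.21 and 10.02 cRPKM in mutant and wildtype kidneys, and Pdk4, under the minimum for testing, 0.657 and 0.687 cRPKM.

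The Pfkfb enzymes make and break fructose 2,6-bisphosphate, the activator of phosphofructokinase. All 3 overlapped between groups, with Pfkfb3 at 8.30 ± 0.883 and 7.74 ± 0.236 cRPKM, Pfkfb2 at 4.07 ± 0.187 and 4.32 ± 0.182 cRPKM, and Pfkfb4 at 3.90 ± 0.115 and 3.92 ± 0.239 cRPKM in mutant and wildtype kidneys (SD, n = 3 each). Their log2 fold changes were 0.09, -0.07 and -0.01 (limma adjusted p 0.647 to 0.982), and that of Pfkfb3 ran from 0.03 without mutant embryo 1 to 0.16 without mutant embryo 2.

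The transcripts of the oxygen-sensing system differed little. Hif1a, the alpha subunit found in most cells, was at 53.5, 51.6 and 52.4 cRPKM in mutant libraries, against 52.8, 52.6 and 51.5 cRPKM in wildtype libraries. Its log2 fold change was 0.00 with a 95% interval of -0.08 to 0.09 (limma adjusted p = 0.977). Epas1, the alpha subunit known from endothelium, was at 6.77, 6.12 and 7.58 cRPKM in mutant libraries, against 6.77, 6.33 and 7.77 cRPKM in wildtype libraries, with an interval of -0.22 to 0.17. HIF alpha is controlled mostly through protein stability, which transcript levels do not show.

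Egln1 encodes the main prolyl hydroxylase that marks HIF alpha. It averaged 27.5 ± 0.286 and 25.5 ± 1.12 cRPKM in mutant and wildtype kidneys (SD, n = 3 each), with a log2 fold change of 0.10 (unadjusted p = 0.0378 and adjusted p = 0.343 with limma). All mutant libraries of Egln1 were above all wildtype ones. Egln3, a hydroxylase that HIF induces, was at 4.87 to 4.99 cRPKM in mutant and 4.19 to 5.05 cRPKM in wildtype libraries, with a log2 fold change of 0.10 (limma adjusted p = 0.580) that ran from 0.05 without wildtype embryo 1 to 0.16 without wildtype embryo 3. The group of 4 had none that passed and 1 higher at an unadjusted p under 0.05, where 5.08% of all tested genes were.

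Of the 6 tested hypoxia response genes outside glycolysis, none passed (limma) and all overlapped between groups, as did 10070 of all 12315 tested genes. None had an unadjusted p under 0.05, where 5.08% of all tested genes were higher and 7.97% lower. P4ha1, for a collagen prolyl hydroxylase subunit, was at 21.5, 18.1 and 18.5 cRPKM in mutant libraries, against 20.3, 20.5 and 17.02 cRPKM in wildtype libraries. Bnip3, for a mitochondrial protein of mitophagy, was at 21.5, 19.0 and 15.8 cRPKM in mutant libraries, against 17.7, 17.2 and 14.1 cRPKM in wildtype libraries (log2 fold change 0.19, SE 0.114, limma adjusted p = 0.560). Its log2 fold change was 0.09 without mutant embryo 1 or wildtype embryo 3 and 0.30 without mutant embryo 3. In both genes wildtype embryo 3 was the lowest wildtype library, and in Bnip3 mutant embryo 3 was also the lowest mutant library. P4ha2 (11.4 and 11.7 cRPKM in mutant and wildtype kidneys), Ndrg1 (4.04 and 4.36) and Ankrd37 (4.71 and 4.42) had log2 fold changes of -0.03, -0.09 and 0.08. Car9, a carbonic anhydrase widely used as a hypoxia marker, was near the minimum for testing at 1.71 ± 0.187 and 1.49 ± 0.0656 cRPKM in mutant and wildtype kidneys (SD, n = 3 each). Adm, for adrenomedullin, was just under that minimum at 1.03 and 0.860 cRPKM.

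**Figure D3:**
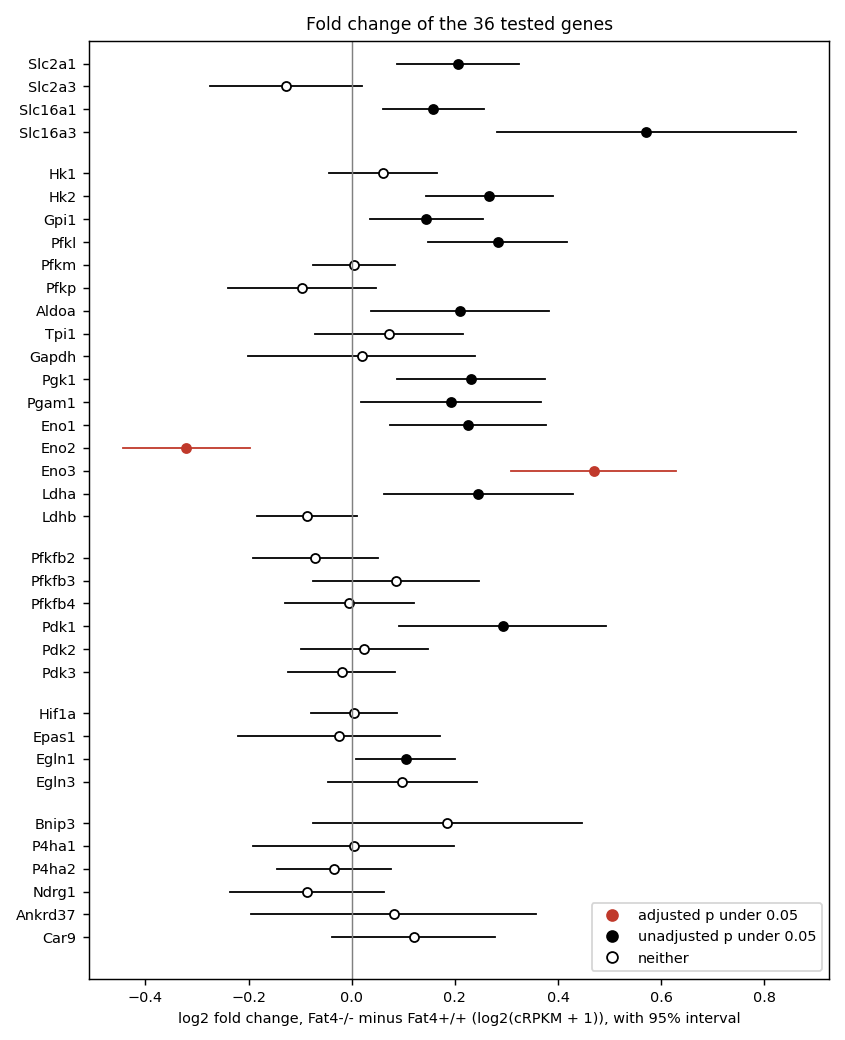
Log2 fold change of each of the 36 tested genes, mutant minus wildtype on the log2(cRPKM + 1) scale, with its 95% interval from limma. Eno3 at 0.47 and Eno2 at -0.32 are the 2 genes past the adjusted threshold; filled black points have an unadjusted p under 0.05 and lie right of 0.

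The members that leaned higher were the well expressed ones. Of 8 tested members at 100 cRPKM or more, 6 had a higher mutant level at an unadjusted p under 0.05, where 4.08% of all 662 tested genes at that level did. Of 17 members from 10 to under 100 cRPKM 8 did, where 5.28% did, and of 11 members from 1 to under 10 cRPKM none did, where 4.95% did. The pseudocount of 1 shrinks the fold change of the low members in either direction. With a pseudocount of 0.1, 14 members were again higher at an unadjusted p under 0.05 (limma). The 17 genes of glycolysis and lactate dehydrogenase summed to 3002, 2844 and 2839 cRPKM in mutant libraries, against 2564, 2721 and 2360 cRPKM in wildtype libraries. All 39 members made up 0.684, 0.628 and 0.660% of the summed cRPKM in mutant libraries, against 0.577, 0.610 and 0.558% in wildtype libraries.

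Single libraries stood out among the members. Wildtype embryo 3 was the lowest of the 6 libraries in 20 of the 36 tested members (55.6%), where it was the lowest in 15.9% of all tested genes. Mutant embryo 1 was the highest of the 6 in 16 members (44.4%), where it was the highest in 7.86% of all tested genes. The 14 members higher at an unadjusted p under 0.05 had every mutant library above every wildtype one. Their lowest library was therefore bound to be wildtype and their highest mutant. Among the wildtype libraries embryo 3 was the lowest in 12 of them, where it was in 37.2% of all tested genes. Among the mutant libraries embryo 1 was the highest in 10, where it was in 27.9% of all tested genes. Those shares are of genes not picked by p. Without mutant embryo 1, 9 members were higher at an unadjusted p under 0.05, where 6.05% of all tested genes were. Without wildtype embryo 3, 11 members were, where 5.66% of all tested genes were. Wildtype embryo 3 also had the lowest summed level of erythroid markers, at 1641 cRPKM. Among the mutant libraries that sum was lowest in embryo 1, at 1977 cRPKM. The part of the erythroid markers in the result was not tested.

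**Figure D4:**
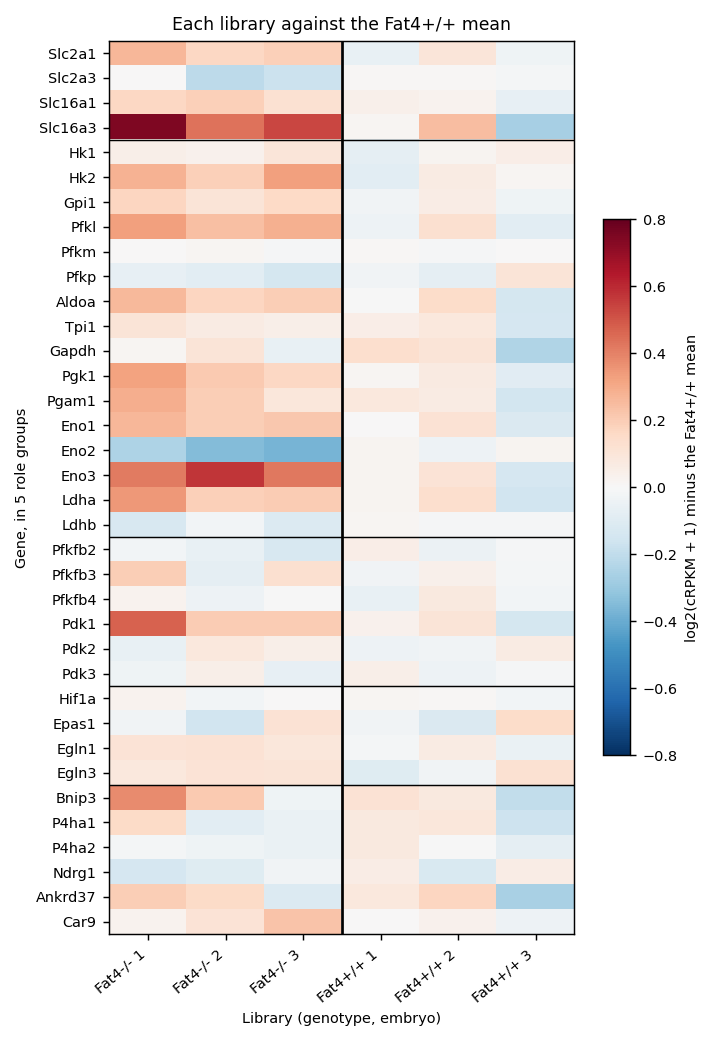
Difference of each library from the mean of the 3 Fat4+/+ libraries on the log2(cRPKM + 1) scale, for the 36 tested genes in 5 role groups, with red above and blue below that mean; Fat4-/- embryos are left of the black line and Fat4+/+ embryos right of it. Mutant embryo 1 is the reddest column in transport and glycolysis, and wildtype embryo 3 the bluest.

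The genotypes also differed in Y-linked expression, which marks male embryos, so sex was partly confounded with genotype. The libraries with Y-linked expression were therefore set apart. Mutant embryo 1 alone was above all 3 wildtype libraries in 20 of 36 tested members (55.6%), where it was above them in 17.7% of all tested genes, and below them in 4 (11.1%), where it was below in 28.2%. A limma fit of these 4 libraries, in which the lone mutant embryo is assumed to vary like the wildtype ones, called no member, and 13 members were higher at an unadjusted p under 0.05, where 1.90% of all tested genes were. The log2 fold changes of Eno3 and Eno2 there were 0.42 and -0.25. Slc2a3 was at 0.00 in that fit, against -0.13 with all libraries.

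The other genes of these pathways were counted in the same fit. Of 30 further glycolysis gene names, which include alternative names of the same gene, 26 had values and 14 were tested. None of these 14 passed (limma), and their median log2 fold change was 0.01. At an unadjusted p under 0.05, 2 were higher and 2 lower, against 5.08% and 7.97% of all tested genes. Pyruvate kinase, listed as Pkm2, was the most expressed of the 14. It was at 801, 779 and 799 cRPKM in mutant libraries, against 691, 756 and 665 cRPKM in wildtype libraries (0.17, limma adjusted p = 0.279). Hkdc1, a hexokinase-like gene, averaged 1.46 ± 0.170 and 2.18 ± 0.436 cRPKM in mutant and wildtype kidneys (-0.37, limma adjusted p = 0.154). Brp44, a subunit of the mitochondrial pyruvate carrier now named Mpc2, averaged 16.3 ± 1.03 and 18.6 ± 0.627 cRPKM (SD, n = 3 each; -0.18, limma adjusted p = 0.158).

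Of 42 further hypoxia gene names, likewise with alternative names, 41 had values and 37 were tested. None passed (limma), and the median log2 fold change was 0.02. At an unadjusted p under 0.05, 5 were higher and 2 lower, against 5.08% and 7.97% of all tested genes. Lox, a collagen crosslinking enzyme, averaged 7.20 ± 0.468 and 11.2 ± 2.47 cRPKM in mutant and wildtype kidneys (-0.55, limma adjusted p = 0.0846). Pgf, a growth factor of the Vegf family, averaged 11.7 ± 0.734 and 9.69 ± 0.511 cRPKM (0.25, limma adjusted p = 0.0860). Rcor2, a corepressor gene, averaged 38.3 ± 1.67 and 32.7 ± 1.75 cRPKM (SD, n = 3 each; 0.22, limma adjusted p = 0.0873). Vegfa, a classic HIF target, was at 38.2, 33.2 and 36.5 cRPKM in mutant libraries, against 35.2, 38.7 and 34.6 cRPKM in wildtype libraries, and was named after its values were seen.

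In the neighbouring branches of sugar metabolism fold changes were small. None of 8 tested pentose phosphate genes passed (limma; none at an unadjusted p under 0.05), with log2 fold changes of -0.07 to 0.06 and Rpe, Taldo1 and Tkt the nearest to the threshold (limma adjusted p 0.665 to 0.684). None of 24 genes of pyruvate dehydrogenase and the citric acid cycle passed (limma), and the median was -0.01. Of the 24, 1 was higher at an unadjusted p under 0.05, where 5.08% of all tested genes were. That 1 was Pdp1, for the phosphatase that turns pyruvate dehydrogenase back on, at 6.97 ± 0.312 and 6.11 ± 0.461 cRPKM in mutant and wildtype kidneys (SD, n = 3 each; 0.17, limma adjusted p = 0.280). Pdha1 and Pdp2 came next (-0.06 and 0.08, limma adjusted p = 0.546 and 0.633). The difference between the members and these groups was not itself tested.

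**Figure D5:**
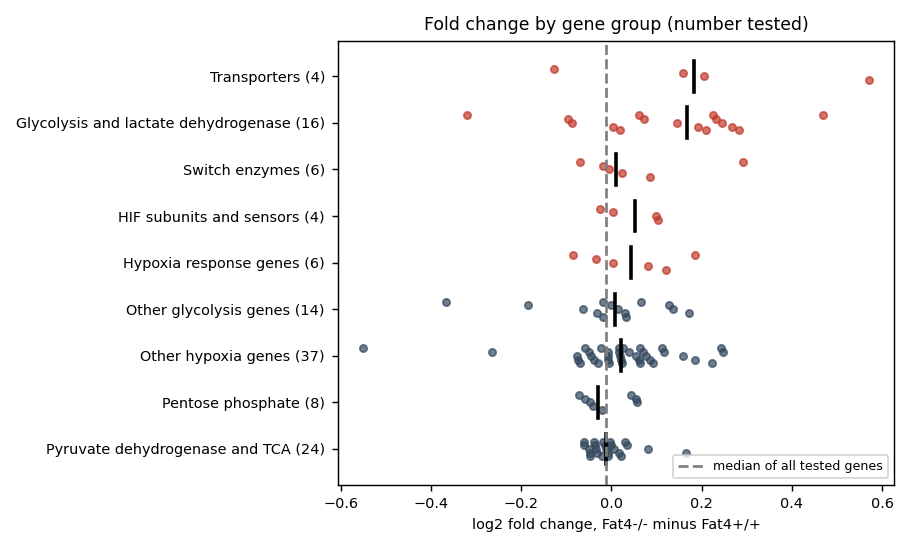
Log2 fold change of each tested gene, mutant minus wildtype, in the 5 role groups of the members (red) and 4 further lists (dark), with a bar at the median of each group and the number tested in brackets. The medians of transport (0.18) and glycolysis (0.17) lie right of the median of all tested genes (dashed, -0.01), and that of pyruvate dehydrogenase and the citric acid cycle lies on it.

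Marker lists of the cells in the kidney moved with the genotype in part. Over all tested genes 5.08% were higher and 7.97% lower at an unadjusted p under 0.05. Of 10 nephron progenitor markers 2 were called higher and none lower, and 7 were higher at an unadjusted p under 0.05. Tmem100 was lower in every mutant library (mean 6.85 against 7.32 cRPKM). Crym had a lower mutant mean, at 32.6 against 37.5 cRPKM, with overlapping values. Of 8 stromal markers 1 was called lower, and 3 were lower at an unadjusted p under 0.05; their summed level was 622 to 661 cRPKM in mutant and 635 to 837 cRPKM in wildtype libraries. Of 10 endothelial markers 1 was called lower and 3 were lower at an unadjusted p under 0.05, with a summed level of 170 to 181 cRPKM in mutant and 183 to 196 cRPKM in wildtype libraries. Of 9 tested erythroid markers none passed (limma; none at an unadjusted p under 0.05), and the summed level of the 12 with values overlapped, at 1977 to 3166 cRPKM in mutant and 1641 to 3047 cRPKM in wildtype libraries. Of 7 tested immediate early and heat shock genes none passed (limma) and 3 were higher at an unadjusted p under 0.05, with sums of 74.9 to 81.7 cRPKM in mutant and 68.0 to 71.0 cRPKM in wildtype libraries. Ureteric markers (9 tested) and macrophage markers (6 tested) had none that passed (limma), with 3 lower, and with 1 higher and 1 lower, at an unadjusted p under 0.05. The part of these shifts in the levels of the glycolysis and hypoxia genes was not tested.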

How the data were processed

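RNA-seq of kidneys from 3 Fat4-/- and 3 Fat4+/+ embryos was used, 1 library per embryo. The authors deposited 1 table of RPKM values in a corrected form they name cRPKM, and the sources used do not describe the correction. Reads were trimmed, per the file headers; Bowtie and mm9 are named in the submitters' processing notes. Of 22667 listed genes, 1114 hold no value. Columns were matched to samples by header text, and all 6 were used.

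Because these are not counts, log2(cRPKM + 1) was tested with limma 3.58.1 in R 4.3.3 (trended eBayes, a 2-sided test of genotype and no other term) where the mean over the libraries reached 1 cRPKM. P-values were Benjamini-Hochberg adjusted over all 12315 tested genes, with calls at 0.05. The fit was tested on simulated data. The embryos are animals of 1 litter, so p-values measure the spread within it. Isozyme shares are percents of summed cRPKM, tested by exact permutation. Read totals are unknown.

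The members, role groups, further lists and naming rule were chosen with earlier results of these data known. All members are accounted for; values per library were given for members called, for the 12 with the smallest unadjusted p, for Hif1a and Epas1 and for the most expressed member of each group, and some others were named after their values were seen. Up to 3 genes of each further list were named by unadjusted p. Gene positions are from GENCODE M21 (GRCm38), joined by Ensembl identifier, and differ from those of mm9. The embryos share numbers 1 to 3 across genotypes, which the labels do not say pairs them. Alternatives covered the pseudocount, the filter, scaling, the variance prior, library weights, Y-linked expression, the embryo number and each library left out.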

Additional observations from a re-analysis of the deposited data

How the results depend on the processing

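Of 756 recomputed values, 663 held under other settings, by a rule for each kind of value. A member's fold change held if its direction and its side of the adjusted threshold stayed. Counts had to stay within a set factor, and medians and shares within a typical SE or SD. As 34 of the 36 tested members were not called, holding for them meant the same sign and again no call. Among the values that did not hold, 31 fold changes and 1 share turned in sign, and 43 counts moved. A further 15 fold changes, of Eno3 or Eno2, lost their call, and 3 of other members gained one. Without a filter on low values (18735 genes tested) 10 genes were called higher and 22 lower, and 0 members in either direction. With a mean of at least 5 cRPKM 61 genes were called lower and Eno2 was too low to test, which left 0 members lower by either p. With the Y-linked score as covariate 1 gene was called higher and 1 lower, and 0 members. In the fit of the libraries with Y-linked expression, added after seeing the data, these were 1 and 3, and 0 members. Library weights called 2 members higher (Eno3 and Hk2); with them, and with quantile normalisation, 2 members were lower at an unadjusted p under 0.05. With the embryo number as a replicate block 109 genes were called higher and 164 lower, and the same 2 members were called as without it; deviations of embryos with the same number correlated at 0.0986, 0.206 and 0.277, and not every embryo correlated best with its own number, so the numbers were not taken as pairs.

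Without 1 library, 7 to 53 genes were called higher and 17 to 87 lower, 0 to 3 members higher and 0 lower. Members at an unadjusted p under 0.05 were then 9 to 14 higher and 1 to 2 lower. The median log2 fold change of the members ran from 0.06 to 0.14 over all alternatives.

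The sign turned for the following members, none of which passed in any setting; the cause was not tested. Slc2a3, at -0.13 with all libraries and no covariate, was at 0.0014 with the Y-linked score and 0.0019 in the libraries with Y-linked expression. Pfkfb4 was at 0.037 with quantile normalisation, 0.0042 with median-of-ratios scaling, 0.027 with the Y-linked score and 0.029 in those libraries, and Pdk2 at -0.0606 and -0.0607 in the last pair of fits. Quantile normalisation put Hif1a at -0.0034 and Epas1 at 0.0071. Library weights put Gapdh at -0.048, Epas1 at 0.049, P4ha1 at -0.014 and Ankrd37 at -0.0026. Without 1 library the log2 fold change ran from -0.0027 to 0.011 for Pfkm, -0.0998 to 0.0880 for Gapdh, -0.0334 to 0.0336 for Pfkfb4, -0.0061 to 0.0666 for Pdk2, -0.0511 to 0.0054 for Pdk3, -0.0087 to 0.017 for Hif1a, -0.0932 to 0.0477 for Epas1, -0.0790 to 0.0490 for P4ha1, -0.0697 to 0.0048 for P4ha2 and -0.0470 to 0.176 for Ankrd37. The Aldoc share differed by -0.0405 to 0.00995 percentage points. Precision is limited by 3 embryos a genotype and by the unknown read totals.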
